A study of Homo sapiens with 12 samples.

Results

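The genes described here are 52 factors that recognise splice sites or help to choose them. They were taken by symbol from a table of 58395 gene rows measured by RNA sequencing in 3 human leukemia cell lines, and all 52 symbols were found. Of these, 51 had enough reads to be tested, and MBNL3 did not. The members fall into 8 roles: 9 genes of the U1 particle and the 5′ splice site, 3 of the branch point and 3′ splice site, 7 of the SF3A and SF3B complexes, 3 of the tri-snRNP, 12 SR and TRA2 proteins, 9 hnRNP proteins, 3 PTB proteins and 6 regulators whose levels differ between tissues.

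Introns are marked for removal when the U1 small nuclear ribonucleoprotein pairs its RNA with the 5′ splice site, while SF1 and the U2AF heterodimer mark the branch point and the 3′ splice site. The U2 particle, with its SF3A and SF3B complexes, then replaces SF1 at the branch point, and the U4/U6.U5 tri-snRNP joins. Proteins of the SR, hnRNP, PTB, MBNL, RBFOX, CELF and QKI families bind exons and introns and favour or hinder these steps, most of all where a splice site is weak.

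Each line had 4 libraries. Edit-3 (K/VP.5/edit-3) is 1 clone of K/VP.5 cells, made by transfecting Cas9 protein with a guide and a repair oligonucleotide that changed the 5′ splice site after exon 19 of TOP2A, which encodes topoisomerase IIα. K/VP.5 is a clonal, etoposide-resistant subline of K562. The parental K562 line was established long ago from a chronic myeloid leukemia. All 3 lines are described as grown with 0.5 µM etoposide every other week, and it is not clear whether the parental K562 cells received it. The free-text description calls every library parental, against the source names, and was not used. No label says that the 4 libraries of a line were separate cultures, so each p-value reflects the spread among libraries and no more, and that spread may be technical.

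The study concerns a weak 5′ splice site, so the edited bases are shown with the U1 sequence that pairs with such sites. The site lies at chr17:40404146-40404154 on the minus strand (GRCh38) and joins the last 3 bases of exon 19, in lower case, to the first 6 bases of intron 19, in capitals. The intron bases are those the submitters state, and exon 19 and the U1 gene RNU1-1 are from GENCODE 29. In the U1 sequence, capitals mark the bases that face the site.
edited site: gagGTAAGT
unedited site: gagGTAAAC
U1 RNA 5′ end: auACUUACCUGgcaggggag
Counted from the first intron base, the edit made the substitutions A5G and C6T. With Watson-Crick pairs only, 8 of 9 bases of the edited site pair with U1, against 6 of 9 in the unedited site. TOP2A itself averaged 416 ± 25 CPM in edit-3, 359 ± 14 CPM in K/VP.5 and 519 ± 26 CPM in K562 (SD, n = 4 each). CPM are read counts scaled to library size, for which library sizes were scaled by TMM, a scaling that limits the weight of a few very abundant genes. Counts per gene cannot tell transcripts with intron 19 from those without it.

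Library totals ran from 25.3 to 37.1 M reads, with a median of 29.6 M, and 1.58% to 1.88% of the reads of a library fell on the 52 genes. Of 8 erythroid and K562 markers, 7 stood at or above 1 CPM in each line, and the list summed to 2180 to 3370 CPM in edit-3, 1990 to 2820 CPM in K/VP.5 and 2370 to 3970 CPM in K562. The myeloid markers summed to 5.75 to 12.9 CPM in edit-3, 4.98 to 6.69 CPM in K/VP.5 and 9.64 to 25.6 CPM in K562. Lymphoid markers summed to between 2.43 and 4.78 CPM in every library, and MS4A1 had 0 reads. The 6 epithelial or fibroblast markers summed to 3060 to 5220 CPM in edit-3, 1160 to 1770 CPM in K/VP.5 and 791 to 1680 CPM in K562. KRT8, KRT18 and EPCAM were expressed in all 3 lines, and COL1A2 averaged 2488 CPM in edit-3, 229 CPM in K/VP.5 and 6.81 CPM in K562. COL1A1 did not follow COL1A2, at 7.5 CPM in edit-3, 18.8 CPM in K/VP.5 and 1.47 CPM in K562. DCN was nearly absent, at 0.017, 0.013 and 0.01 CPM in the same order of lines. Whether these marker differences have a part in the results for the splicing factors was not tested. In such bulk libraries, fewer cells of a type and less RNA per cell cannot be told apart.

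Levels between genes were compared as CPM per kilobase of merged exons. HNRNPA1, an hnRNP protein that often acts against exon inclusion, was the most abundant member in every line, at 322 ± 7.5 CPM per kb in edit-3, 311 ± 11 in K/VP.5 and 337 ± 13 in K562 (SD, n = 4). HNRNPF followed at 184 ± 4.9, 185 ± 17 and 233 ± 14 CPM per kb in the same order of lines, and its lowest library, at 163 CPM per kb, stood level with the highest of HNRNPK. The 3rd to 10th places went to HNRNPK, HNRNPC, PTBP1, SRSF1, U2AF2, SNRPC, HNRNPA2B1 and HNRNPM, whose library values overlapped from each place to the next, so their order is not settled. PTBP2, the PTB protein best known from neurons, was the lowest member that was tested, at 1.21 ± 0.21 CPM per kb in edit-3, 1.56 ± 0.099 in K/VP.5 and 1.71 ± 0.076 in K562. Its relative PTBP1 stood at 105 ± 19, 120 ± 3.9 and 130 ± 7.8 CPM per kb in those lines. On the plain CPM scale, 7 of the 10 most abundant members were the same and HNRNPA1 again led. HNRNPU came next there, and HNRNPF came after HNRNPK. The order below HNRNPA1 thus depends on the length measure, which merges the exons of all annotated transcripts (22512 bases for HNRNPU, 3253 for HNRNPF). MBNL3 had 6 reads in edit-3, 27 in K/VP.5 and 5 in K562, summed over the 4 libraries of each line.

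**Figure D1:**
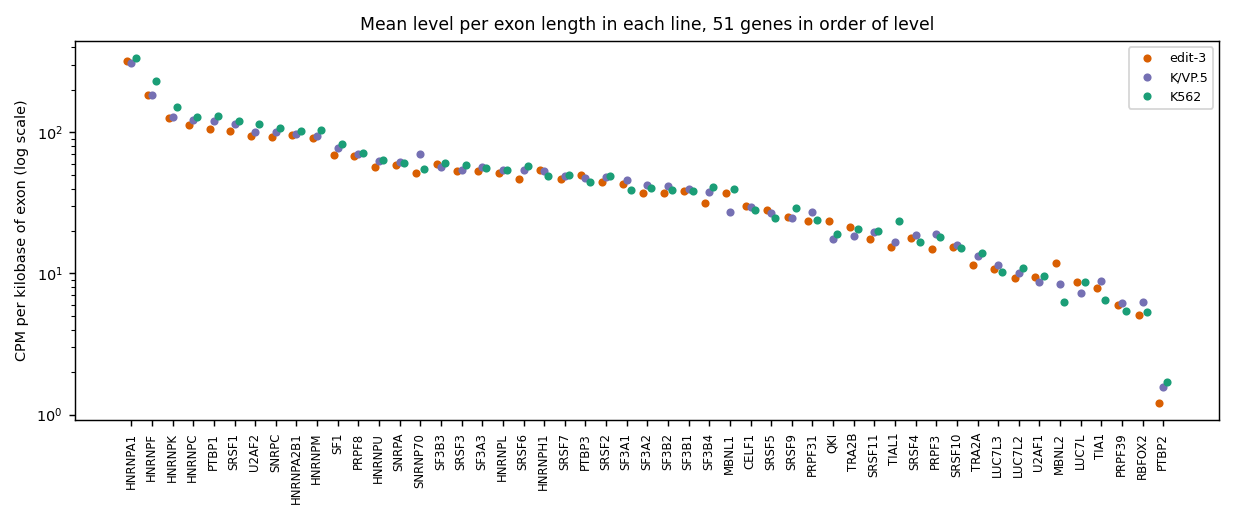
Mean CPM per kilobase of exon (log axis) of the 51 tested genes in edit-3, K/VP.5 and K562, each point the mean of 4 libraries, in order of the mean over all libraries. HNRNPA1 stood highest at a mean of 323 CPM per kb and PTBP2 lowest at 1.49.

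The 3 comparisons made are not independent, since each pair of them shares the libraries of a line. A gene counts as changed when its p-value from edgeR's quasi-likelihood test, adjusted by the Benjamini-Hochberg method over all 18286 genes tested, is under 0.05. In K/VP.5 against K562, 9 of 51 members changed (17.6%), 4 higher and 5 lower, where 36.6% of all genes did. In edit-3 against K/VP.5, 7 changed (13.7%), 2 higher and 5 lower, where 23.6% of all genes did. In edit-3 against K562, 10 changed (19.6%), 2 higher and 8 lower, where 39.2% of all genes did. Among 7632 genes within the members' range of levels, 19.3 to 1650 CPM, the shares were 39.2%, 25.4% and 42.1% in the same order. No member changed by 2-fold or more, which 13.4%, 8.32% and 15% of all genes did.

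Sizes of change were small across the set. The median absolute log2 fold change of the members was 0.116 in K/VP.5 against K562, 0.108 in edit-3 against K/VP.5 and 0.144 in edit-3 against K562. Over all genes it was 0.304, 0.234 and 0.319, and over the genes of like level 0.201, 0.164 and 0.212. The signed medians were −0.04, −0.082 and −0.092 for the members, against 0.003, 0.004 and 0.005 for all genes. The libraries of the 2 lines did not overlap in CPM for 9, 7 and 6 tested members, or 17.6%, 13.7% and 11.8%, where 37.4%, 26% and 34% of all genes did not overlap. A total of 34 members passed in no comparison.

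**Figure D2:**
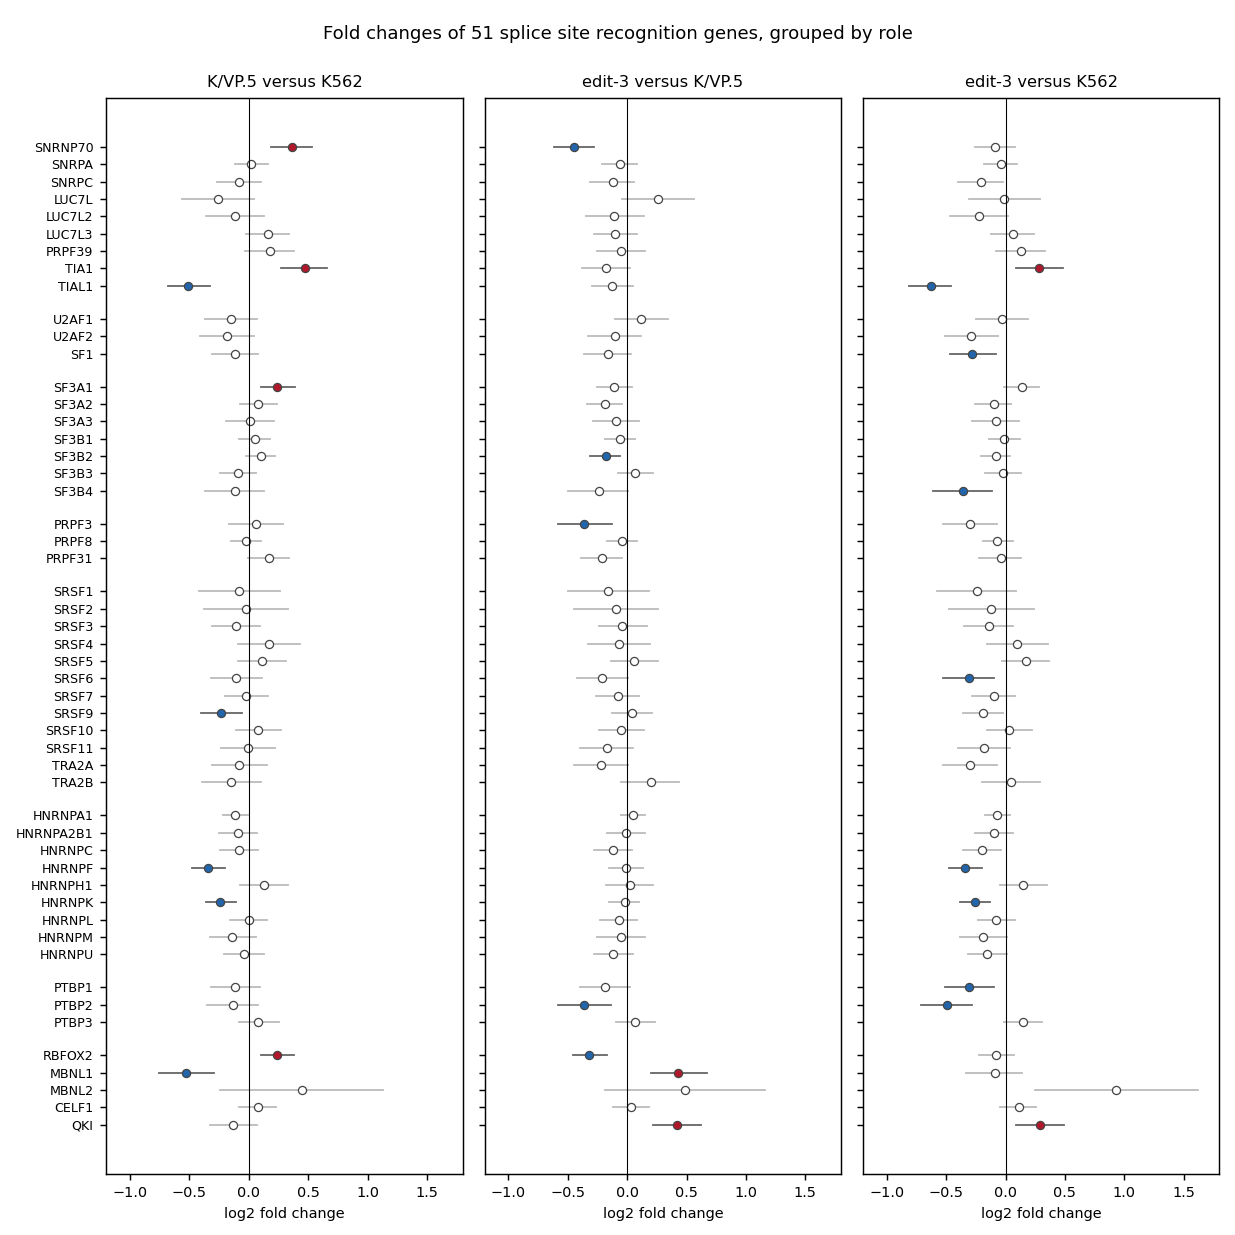
Log2 fold change of 51 genes, grouped by role from the U1 particle at the top to tissue-biased regulators at the bottom, in 3 comparisons. Bars give the approximate 95% interval. Filled points passed at adjusted p under 0.05 (red higher, blue lower), and open points did not. MBNL2 has the widest bars and TIAL1 the largest fall.

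Among the 9 genes of the U1 particle and the 5′ splice site, 2 rose and 1 fell in K/VP.5 against K562, 1 fell in edit-3 against K/VP.5, and 1 rose and 1 fell in edit-3 against K562. SNRNP70 (chr19:49085419-49108605, plus strand), the U1-70K protein that binds the first stem-loop of U1 RNA, had its highest mean in K/VP.5. It had 252, 195, 265 and 249 CPM in replicates 1 to 4 of edit-3, 339, 331, 326 and 320 CPM in those of K/VP.5, and 244, 246, 278 and 257 CPM in those of K562. Every K/VP.5 library was above every library of the other lines, while edit-3 and K562 overlapped. SNRNP70 rose in K/VP.5 against K562 by 0.36 log2 units (SE 0.086, adjusted p = 0.0041). In edit-3 against K/VP.5 it fell, at −0.45 (SE 0.087, adjusted p = 0.0013). Edit-3 against K562 gave −0.09 (SE 0.086, adjusted p = 0.44), with a 95% interval from −0.26 to 0.08.

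TIA1 and TIAL1 are sister proteins that bind U-rich RNA just downstream of weak 5′ splice sites and help U1 to bind there. Their changes against K562 ran in opposite directions. TIA1 (chr2:70209444-70248660, minus strand) had 58.8, 50.5, 45.4 and 52.3 CPM in the edit-3 libraries, 58.8, 56.4, 61.9 and 57.8 CPM in those of K/VP.5, and 48, 36, 46.9 and 39.2 CPM in those of K562. All K/VP.5 libraries were above all K562 libraries, and edit-3 overlapped with both. TIA1 rose in K/VP.5 against K562 by 0.47 log2 units (SE 0.1, adjusted p = 0.002) and in edit-3 against K562 by 0.28 (SE 0.1, adjusted p = 0.037).

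TIAL1 (chr10:119571802-119597029, minus strand) had 128, 103, 113 and 106 CPM in the edit-3 libraries, 130, 117, 126 and 118 CPM in those of K/VP.5, and 195, 163, 186 and 155 CPM in those of K562. Each K562 library was above all 8 of the other libraries. TIAL1 fell in K/VP.5 against K562 (log2 fold change −0.51, SE 0.089, adjusted p = 0.00037) and in edit-3 against K562 (−0.63, SE 0.089, adjusted p = 4.4e-05). Edit-3 against K/VP.5 gave −0.13 (SE 0.089, adjusted p = 0.35). For TIA1 the same comparison gave −0.18 (SE 0.1, adjusted p = 0.22).

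The call for TIA1 in edit-3 against K562 was lost without any 1 of 7 libraries, edit-3 replicates 1 and 4, K/VP.5 replicates 1, 2 and 4 and K562 replicates 2 and 4, with log2 fold changes of 0.19 to 0.27 and adjusted p of 0.06 to 0.16. C2orf42, which overlaps TIA1 on the same strand over 211 exon bases and has 21.4% as many reads, was also higher in K/VP.5 than in K562, at 0.36 (SE 0.11, adjusted p = 0.017). The part of shared reads was not tested.

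The other 6 genes of this role did not pass in any comparison. SNRPA, a U1 protein that binds the second stem-loop of U1 RNA, had 134, 139, 140 and 145 CPM in the edit-3 libraries, 142, 140, 145 and 156 CPM in those of K/VP.5, and 131, 135, 151 and 158 CPM in those of K562. SNRPC, a U1 protein that steadies the pairing of U1 with the splice site, had 136, 107, 117 and 113 CPM in the edit-3 libraries, 137, 131, 121 and 127 CPM in those of K/VP.5, and 148, 121, 154 and 123 CPM in those of K562. For both genes the lines overlapped in all comparisons, with the largest difference at −0.21 for SNRPC in edit-3 against K562 (SE 0.096, adjusted p = 0.1).

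LUC7L, LUC7L2 and LUC7L3 are human relatives of yeast Luc7, a U1 protein that acts in the choice of 5′ splice sites. LUC7L had 64.6, 38.1, 59.8 and 52.8 CPM in the edit-3 libraries, 53.1, 38.9, 47.1 and 41 CPM in those of K/VP.5, and 61.2, 52.2, 58 and 44.8 CPM in those of K562. LUC7L2 had 71.1, 44.1, 63 and 58 CPM in the edit-3 libraries, 66.8, 65.4, 62.9 and 59.3 CPM in those of K/VP.5, and 76.2, 66.1, 75 and 58.4 CPM in those of K562. The libraries of a line were spread widely for both genes, with edit-3 replicate 2 the lowest edit-3 library.

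LUC7L3 had 98.8, 74.3, 94.9 and 82.6 CPM in the edit-3 libraries, 101, 88.4, 90.2 and 95.4 CPM in those of K/VP.5, and 87.7, 76.7, 90.2 and 81.9 CPM in those of K562. PRPF39, which in yeast is a subunit of the U1 particle, had 30, 33.7, 26.4 and 27.6 CPM in the edit-3 libraries, 32, 29, 33 and 27.7 CPM in those of K/VP.5, and 29.8, 26.5, 28.6 and 22.7 CPM in those of K562. All lines overlapped for these genes. FKBP3 overlaps PRPF39 on the opposite strand over 13.2% of its exon bases and has 94.4% as many reads, and the strand setting of the counts is not known here.

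Same-numbered libraries of K/VP.5 and K562 tended to deviate together, though no label pairs them. A fit with the replicate number as a block was therefore also run for K/VP.5 against K562. Over all 12 libraries the blocked fit called 10 members, the addition being LUC7L at −0.27 (adjusted p = 0.032). With only these 2 lines, a fit added after seeing the data, the block gave 15 members, 7 higher and 8 lower. The 6 additions were LUC7L (−0.26, adjusted p = 0.0037), U2AF2 (−0.18, adjusted p = 0.016), SRSF4 (0.18, adjusted p = 0.03), PRPF39 (0.18, adjusted p = 0.034), LUC7L3 (0.16, adjusted p = 0.036) and QKI (−0.13, adjusted p = 0.047). Over all genes, too, both blocked fits called more than the main fit. The gain in calls was thus not limited to the members.

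**Figure D3:**
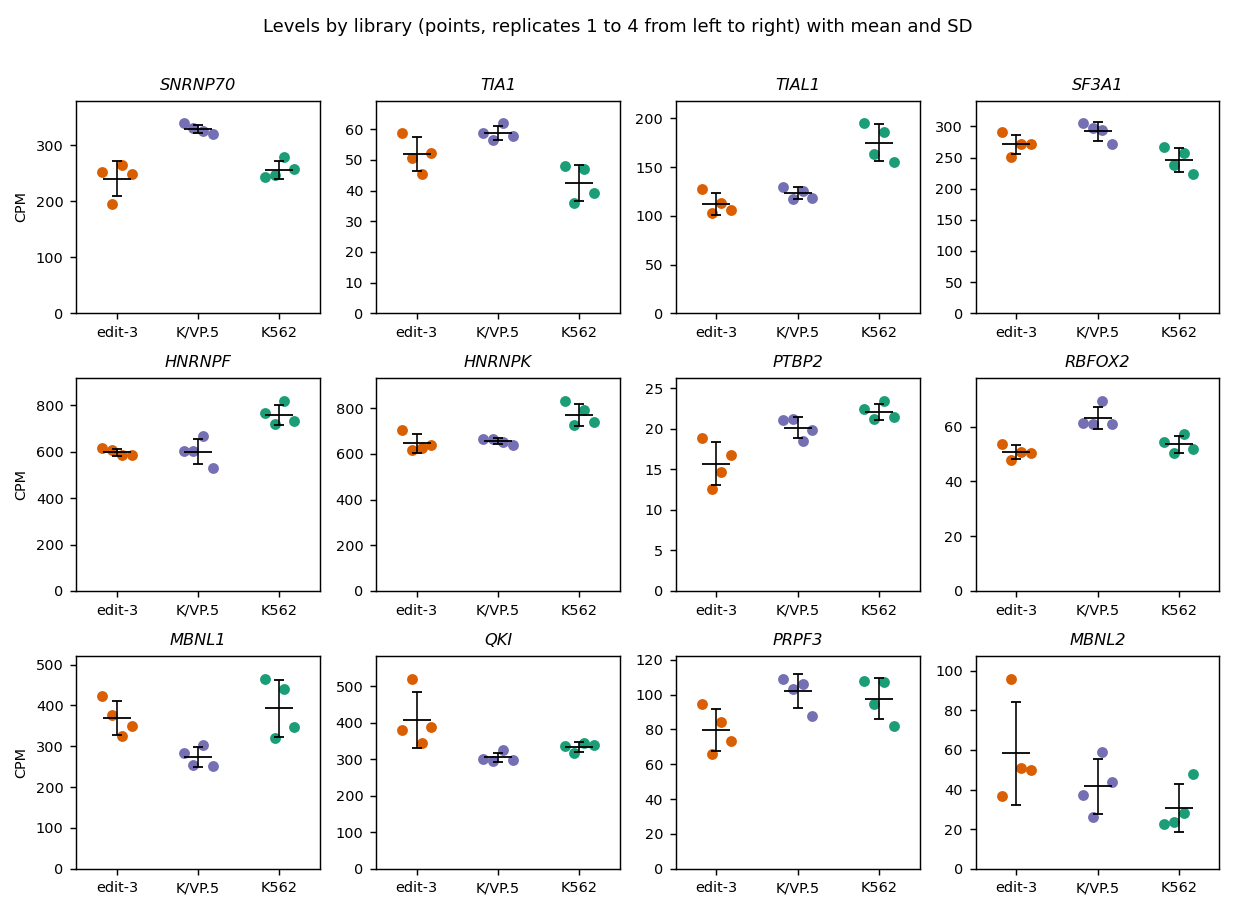
CPM of 12 members by library in edit-3, K/VP.5 and K562 (points, replicates 1 to 4 from left to right), with the mean and SD of 4 libraries in black and each axis starting at 0. SNRNP70 and RBFOX2 are highest in K/VP.5, MBNL1 is lowest there, and TIAL1, HNRNPF and HNRNPK are highest in K562.

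At the branch point and 3′ splice site, none of 3 genes passed in K/VP.5 against K562 or in edit-3 against K/VP.5, and 1 fell in edit-3 against K562. That gene was SF1, the branch point binding protein, with 455, 351, 427 and 408 CPM in the edit-3 libraries, 461, 547, 413 and 415 CPM in those of K/VP.5, and 510, 511, 514 and 454 CPM in those of K562. The highest edit-3 library just overlapped with the lowest K562 library. SF1 fell by 0.28 log2 units in edit-3 against K562 (SE 0.099, adjusted p = 0.037). The call was lost without any 1 of edit-3 replicates 2, 3 and 4 and K562 replicates 1, 2 and 3 (log2 fold changes −0.3 to −0.21, adjusted p 0.053 to 0.1).

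U2AF2, the large U2AF subunit that binds the polypyrimidine tract, had 440, 285, 410 and 407 CPM in the edit-3 libraries, 426, 423, 424 and 384 CPM in those of K/VP.5, and 483, 446, 530 and 421 CPM in those of K562. Edit-3 replicate 2 was far below the other libraries. The log2 fold changes were −0.18 in K/VP.5 against K562 (SE 0.11, adjusted p = 0.24), −0.1 in edit-3 against K/VP.5 (SE 0.11, adjusted p = 0.56) and −0.29 in edit-3 against K562 (SE 0.11, adjusted p = 0.061).

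U2AF1, the small subunit that reads the AG at the end of the intron, had 122, 83.8, 110 and 104 CPM in the edit-3 libraries, 101, 98.7, 85.3 and 101 CPM in those of K/VP.5, and 115, 110, 114 and 89.4 CPM in those of K562, with no call in any comparison. Its reads are shared with an annotated near-identical copy, U2AF1L5, also on chromosome 21. The transcripts U2AF1-204 and U2AF1L5-204, of 1675 bases each, differ at 2 positions and are 99.88% identical. The stretch from base 449 to base 477 around one of these, with the differing base in capitals, shows how few reads can tell them apart.
U2AF1: ctcaccacaccggtGttttcaagagagaa
U2AF1L5: ctcaccacaccggtCttttcaagagagaa
Of the reads on both genes, U2AF1 held between 48.5% (95% Clopper-Pearson interval 47.1% to 49.9%, counting error only) and 54.9% (53.7% to 56.2%) in the 12 libraries. The sum of both ran from 172 to 233 CPM in edit-3, from 176 to 206 CPM in K/VP.5 and from 184 to 230 CPM in K562. Summing the reads of the copies, chosen after seeing the data, gave no call either. The U2AF1 values are therefore uncertain as a measure of that gene alone.

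Of the 7 SF3A and SF3B genes, 1 rose in K/VP.5 against K562, 1 fell in edit-3 against K/VP.5 and 1 fell in edit-3 against K562, a different gene each time. SF3A1, a subunit of the SF3A complex, had 291, 251, 271 and 271 CPM in the edit-3 libraries, 305, 297, 294 and 271 CPM in those of K/VP.5, and 267, 238, 257 and 224 CPM in those of K562. The K/VP.5 libraries did not overlap with K562, and SF3A1 rose there by 0.24 log2 units (SE 0.073, adjusted p = 0.016). Without K/VP.5 replicate 1 or K562 replicate 2 the call was lost (0.22 to 0.23, adjusted p 0.055 to 0.059).

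SF3B2 had 366, 345, 370 and 364 CPM in the edit-3 libraries, 426, 422, 407 and 387 CPM in those of K/VP.5, and 390, 380, 410 and 351 CPM in those of K562. No edit-3 library reached the K/VP.5 range, and SF3B2 fell in edit-3 against K/VP.5 by 0.18 (SE 0.063, adjusted p = 0.046). Leaving out any 1 of 9 libraries, all edit-3 libraries, K/VP.5 replicates 1, 2 and 3 and K562 replicates 1 and 2, moved the adjusted p to between 0.05 and 0.11, at −0.2 to −0.16. SF3B4 had 87, 58.7, 70.5 and 69.7 CPM in the edit-3 libraries, 89.7, 94.3, 77.7 and 77 CPM in those of K/VP.5, and 103, 87.7, 104 and 73.2 CPM in those of K562. Edit-3 and K562 overlapped, and the fall in edit-3 against K562 was 0.36 (SE 0.13, adjusted p = 0.038). It was lost without any 1 of edit-3 replicates 2, 3 and 4 and K562 replicates 1, 2 and 3 (−0.4 to −0.28, adjusted p 0.051 to 0.11).

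SF3B1, the subunit that clamps the branch point and is often mutated in myeloid neoplasms, averaged 351 ± 19 CPM in edit-3, 367 ± 17 CPM in K/VP.5 and 355 ± 22 CPM in K562 (SD, n = 4). Its log2 fold changes of 0.05, −0.06 and −0.01 had 95% intervals that lay between −0.19 and 0.18. SF3A2, SF3A3 and SF3B3 did not pass in any comparison.

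In the tri-snRNP group of 3, PRPF3, a protein of the U4/U6 particle, fell in edit-3 against K/VP.5, and no other test passed. It had 94.3, 66, 84.3 and 73.5 CPM in the edit-3 libraries, 109, 103, 106 and 87.9 CPM in those of K/VP.5, and 108, 94.7, 107 and 81.9 CPM in those of K562. The edit-3 and K/VP.5 libraries overlapped, and the fall was 0.36 log2 units (SE 0.12, adjusted p = 0.04). It did not pass without any 1 of edit-3 replicates 2, 3 and 4 and K/VP.5 replicates 1, 2 and 3 (−0.38 to −0.28, adjusted p 0.057 to 0.1). PRPF8, the large protein at the heart of the spliceosome, averaged 773 ± 42 CPM in edit-3, 795 ± 17 CPM in K/VP.5 and 808 ± 57 CPM in K562 (SD, n = 4), with no call.

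SR proteins bind exonic enhancers and promote use of the neighbouring splice sites. Of 12 SR and TRA2 genes, 1 fell in K/VP.5 against K562, none passed in edit-3 against K/VP.5 and 1 fell in edit-3 against K562. SRSF9 averaged 92.1 ± 7.4 CPM in K/VP.5 and 108 ± 4.8 CPM in K562 (SD, n = 4), a fall of 0.23 log2 units (SE 0.087, adjusted p = 0.049). That call was lost without any 1 of 8 libraries, edit-3 replicates 3 and 4, K/VP.5 replicates 2, 3 and 4 and K562 replicates 1, 2 and 3 (−0.24 to −0.19, adjusted p 0.059 to 0.16). GATC overlaps SRSF9 on the opposite strand over 46.2% of its exon bases.

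SRSF6 had 248, 194, 206 and 210 CPM in the edit-3 libraries, 241, 308, 212 and 229 CPM in those of K/VP.5, and 277, 286, 255 and 247 CPM in those of K562. Edit-3 replicate 1 lay just above the lowest K562 library, and SRSF6 fell by 0.31 in edit-3 against K562 (SE 0.11, adjusted p = 0.034). It did not pass without any 1 of edit-3 replicates 2, 3 and 4 and K562 replicates 1 and 2 (−0.31 to −0.27, adjusted p 0.07 to 0.088). SRSF1, the archetype of the family, was the member of this role with the widest spread in edit-3. It had 458, 236, 349 and 317 CPM in the edit-3 libraries, 423, 383, 378 and 339 CPM in those of K/VP.5, and 476, 381, 436 and 319 CPM in those of K562, and it overlapped in all comparisons. TRA2A and TRA2B, whose proteins bind purine-rich enhancers, did not pass in any comparison.

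HnRNP proteins often silence exons, though several act either way depending on where they bind. Of 9 such genes, 2 fell in K/VP.5 against K562, the same 2 fell in edit-3 against K562, and none passed in edit-3 against K/VP.5. HNRNPF, which binds G-rich runs, had 617, 605, 585 and 584 CPM in the edit-3 libraries, 604, 601, 665 and 530 CPM in those of K/VP.5, and 764, 717, 817 and 732 CPM in those of K562. HNRNPK, which binds C-rich RNA, had 706, 616, 624 and 638 CPM in the edit-3 libraries, 665, 667, 650 and 641 CPM in those of K/VP.5, and 831, 727, 791 and 741 CPM in those of K562. For both genes all 8 libraries of edit-3 and K/VP.5 were below all 4 of K562. HNRNPF fell by 0.34 on the log2 scale both in K/VP.5 against K562 (SE 0.071, adjusted p = 0.0017) and in edit-3 against K562 (SE 0.071, adjusted p = 0.0014). HNRNPK fell by 0.24 in K/VP.5 against K562 (SE 0.064, adjusted p = 0.0091) and by 0.26 in edit-3 against K562 (SE 0.064, adjusted p = 0.0047). The most abundant member, HNRNPA1, gave −0.12, 0.05 and −0.07 (SE 0.053 each) in K/VP.5 against K562, edit-3 against K/VP.5 and edit-3 against K562, with no call.

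Among the 3 PTB proteins, which bind pyrimidine-rich RNA and mostly repress exons, none passed in K/VP.5 against K562, 1 fell in edit-3 against K/VP.5 and 2 fell in edit-3 against K562. PTBP2 had 18.8, 12.6, 14.7 and 16.7 CPM in the edit-3 libraries, 21.1, 21.2, 18.5 and 19.8 CPM in those of K/VP.5, and 22.4, 21.2, 23.4 and 21.5 CPM in those of K562. The edit-3 libraries were all below K562, and 1 of them overlapped with K/VP.5. PTBP2 fell in edit-3 against K562 (log2 fold change −0.49, SE 0.11, adjusted p = 0.0024) and in edit-3 against K/VP.5 (−0.36, SE 0.11, adjusted p = 0.03). The second call was lost without any 1 of edit-3 replicates 2 and 3 and K/VP.5 replicates 1 and 2 (−0.35 to −0.27, adjusted p 0.065 to 0.078).

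PTBP1 had 842, 539, 764 and 745 CPM in the edit-3 libraries, 825, 852, 834 and 788 CPM in those of K/VP.5, and 899, 843, 966 and 867 CPM in those of K562. Edit-3 and K562 did not overlap, by 1 CPM, and edit-3 replicate 2 was far below the rest. PTBP1 fell by 0.31 in edit-3 against K562 (SE 0.11, adjusted p = 0.031), and without edit-3 replicate 2 the log2 fold change was −0.19 (adjusted p = 0.041). The call was lost without any 1 of edit-3 replicate 4 and K562 replicates 1 and 3 (−0.33 to −0.27, adjusted p 0.05 to 0.087). PTBP3 did not pass in any comparison.

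Of the tissue-biased regulators, 5 were tested. In K/VP.5 against K562, 1 rose and 1 fell. In edit-3 against K/VP.5, 2 rose and 1 fell, and in edit-3 against K562, 1 rose. RBFOX2, which binds UGCAUG and acts by its position around exons, had 53.8, 47.7, 50.9 and 50.4 CPM in the edit-3 libraries, 61.3, 61, 69.3 and 60.9 CPM in those of K/VP.5, and 54.5, 50.3, 57.3 and 51.8 CPM in those of K562. As for SNRNP70, each K/VP.5 library was above all others. RBFOX2 rose in K/VP.5 against K562 by 0.24 (SE 0.073, adjusted p = 0.017) and fell in edit-3 against K/VP.5 by 0.32 (SE 0.073, adjusted p = 0.0051). The rise was lost without K/VP.5 replicate 3 or K562 replicate 2 (0.19 to 0.21, adjusted p 0.066 to 0.07).

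MBNL1, the muscleblind protein sequestered by repeat RNA in myotonic dystrophy, moved the other way. It had 423, 377, 326 and 349 CPM in the edit-3 libraries, 284, 255, 303 and 251 CPM in those of K/VP.5, and 465, 320, 440 and 348 CPM in those of K562. All K/VP.5 libraries were below all others. MBNL1 fell in K/VP.5 against K562 (log2 fold change −0.53, SE 0.12, adjusted p = 0.0028) and rose in edit-3 against K/VP.5 (0.43, SE 0.12, adjusted p = 0.016). The rise did not pass without K/VP.5 replicate 2 or 4 (0.38, adjusted p 0.058 to 0.065). Edit-3 against K562 gave −0.09 (SE 0.12, adjusted p = 0.58).

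QKI, a STAR-family protein that also shapes circular RNAs, was high in edit-3, at 381, 520, 343 and 388 CPM, against 300, 296, 324 and 298 CPM in those of K/VP.5 and 336, 316, 345 and 338 CPM in those of K562. The edit-3 libraries were above all K/VP.5 libraries and overlapped with K562. QKI rose by 0.42 in edit-3 against K/VP.5 (SE 0.1, adjusted p = 0.0075) and by 0.29 in edit-3 against K562 (SE 0.1, adjusted p = 0.036). Edit-3 replicate 2 held the highest value, and without it the 2 log2 fold changes were 0.28 (adjusted p = 0.007) and 0.15 (adjusted p = 0.093). The second call was also lost without any 1 of edit-3 replicate 4, K/VP.5 replicates 1, 2 and 4 and K562 replicates 1, 2 and 3, with adjusted p from 0.052.

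MBNL2, a paralog of MBNL1, had 36.7, 95.9, 50.9 and 49.7 CPM in the edit-3 libraries, 37.3, 26.3, 59 and 44 CPM in those of K/VP.5, and 22.8, 23.6, 28.4 and 47.7 CPM in those of K562. It had the widest spread of the 51 genes in each line, and its log2 fold change of 0.93 in edit-3 against K562 (SE 0.35, adjusted p = 0.055) did not pass. CELF1, which binds GU-rich RNA, did not pass in any comparison.

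The 17 members that passed somewhere differed in the comparisons they passed in. SNRNP70 and RBFOX2 were higher in K/VP.5 than in K562 and lower in edit-3 than in K/VP.5, and MBNL1 was the reverse. TIAL1, HNRNPF and HNRNPK were lower, and TIA1 higher, in both K/VP.5 and edit-3 than in K562. QKI was higher and PTBP2 lower in edit-3 than in both of the other lines. SF1, SF3B4, SRSF6 and PTBP1 passed as lower in edit-3 than in K562, and SF3B2 and PRPF3 as lower in edit-3 than in K/VP.5. SF3A1 passed as higher and SRSF9 as lower in K/VP.5 than in K562. Each of these 8 genes passed in no other comparison. Because the comparisons share libraries, a high or low K/VP.5 mean alone gives opposite signs in the first pair, and these patterns are descriptions.

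To see whether a change stood alone on its chromosome, each gene was set beside its 20 nearest tested neighbours, 10 on each side. The neighbours of TIAL1 on chromosome 10 had a median log2 fold change of −0.61 in K/VP.5 against K562, with 19 of 20 in the direction of TIAL1, and −0.52 in edit-3 against K562, with 18 of 20. Those of HNRNPK on chromosome 9 had −0.41 and −0.54, with 16 of 20 each time. For MBNL1 on chromosome 3, the neighbours had −0.33 in K/VP.5 against K562, 14 of 20 in its direction, and 0.26 in edit-3 against K/VP.5, 13 of 20. LUC7L on chromosome 16 did not pass, yet its neighbours had −0.54 in K/VP.5 against K562 and 0.5 in edit-3 against K/VP.5. The 20 neighbours of MBNL2 on chromosome 13 were all higher in edit-3 than in K562, with a median of 0.75.

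By sign, the neighbours' median went with 8 of the 9 members called in K/VP.5 against K562, all but SNRNP70. For RBFOX2 (0.02, 11 of 20 in its direction) and SRSF9 (−0.07, 13 of 20) that median was small. The neighbours' median went with 4 of 7 called in edit-3 against K/VP.5 and 4 of 10 in edit-3 against K562. The same count for members that did not pass is not given here, so these counts have no reference beside them. Some members stood apart from their surroundings in sign or size. SNRNP70 was higher in K/VP.5 than in K562, while its neighbours on chromosome 19 had a median of −0.2 and 7 of 20 shared its sign. In edit-3 against K/VP.5 those neighbours had −0.03. The neighbours of RBFOX2 on chromosome 22 had 0.02 in K/VP.5 against K562 and 0.01 in edit-3 against K/VP.5, and those of QKI on chromosome 6 had −0.04 in edit-3 against K/VP.5 and 0.02 in edit-3 against K562. PTBP2 fell in edit-3 against K562, where its neighbours on chromosome 1 had 0.18 and 5 of 20 shared its sign. HNRNPA2B1 on chromosome 7 gave −0.09 in K/VP.5 against K562, among neighbours at 0.66. The part of chromosomal position in these results was not tested.

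**Figure D4:**
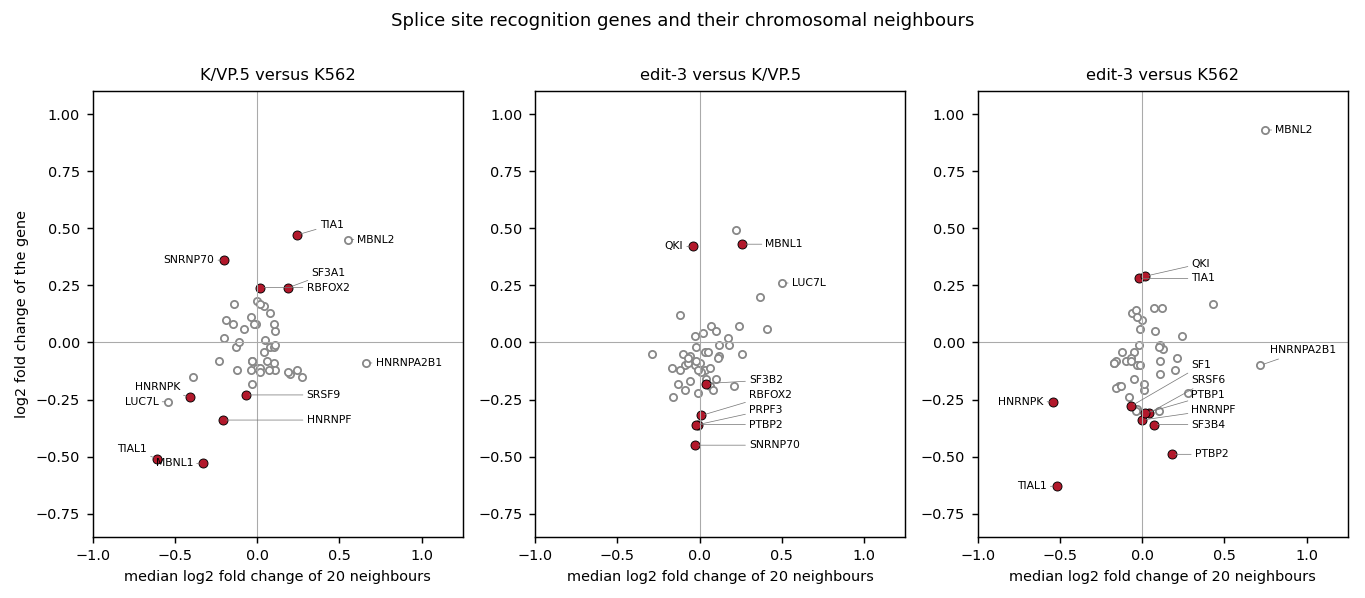
Log2 fold change of each of 51 genes (vertical axis) against the median log2 fold change of its 20 nearest tested neighbours (horizontal axis) in 3 comparisons. Filled points passed at adjusted p under 0.05. TIAL1, HNRNPK and MBNL1 lie on the side of their neighbours in K/VP.5 against K562, while SNRNP70 lies opposite to its own.

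Within a line, most of the 51 genes deviated in the same direction in many libraries, though not in all. In edit-3 replicate 1, 48 of 51 were above the mean of their line, with a median deviation of 0.19 on the log2 scale, and in edit-3 replicate 2, 41 were below it, with a median of −0.15. In K/VP.5, 41 were above the mean in replicate 1 and 44 below it in replicate 4. In K562, 46 and 42 were above it in replicates 1 and 3, and 40 and 45 below it in replicates 2 and 4. Edit-3 replicate 3, with 28 above and 23 below, and K/VP.5 replicate 3, with 26 and 25, were split nearly evenly. MBNL2 (−0.572 and 0.811) and QKI (−0.081 and 0.368) went against most members in edit-3 replicates 1 and 2. All-gene medians stayed between −0.027 and 0.027 in the 12 libraries, where TMM scaling holds them near 0 whatever single genes do. Of 10850 genes above a level cut-off, 44.8% to 57.1% lay above the mean of their line in a library. A single axis held 56.4% of the variance of these genes within lines, so shared movement was not limited to the members. The 140 tested genes of related splicing lists leaned the same way in the lopsided libraries, with 117 above the mean in edit-3 replicate 1 and 114 below it in K562 replicate 4.

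**Figure D5:**
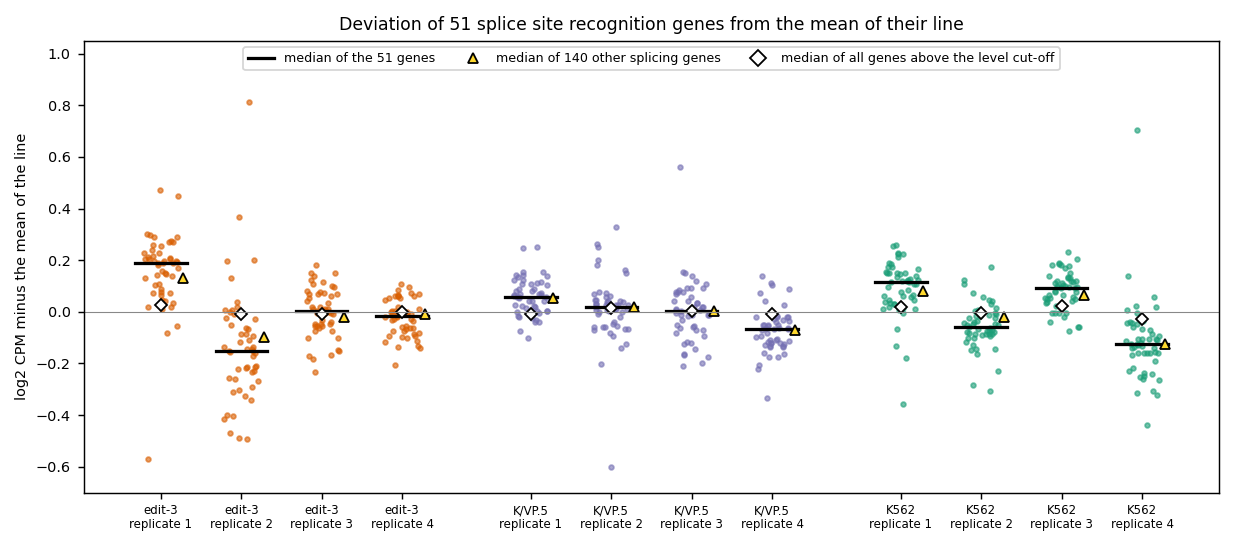
Deviation of the log2 CPM of each of 51 genes from the mean of its line, by library (points), with the median of the 51 genes (bars), of 140 other splicing genes (triangles) and of all genes above a level cut-off (diamonds). The bars reach 0.19 in edit-3 replicate 1 and −0.15 in edit-3 replicate 2, while the diamonds stay near 0, where TMM scaling holds them.

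The share of mitochondrial reads was 0.822%, 1.22%, 0.831% and 1.21% in edit-3 replicates 1 to 4, 0.985%, 0.795%, 0.956% and 1.18% in K/VP.5, and 0.712%, 0.774%, 0.774% and 0.93% in K562. Replicate 4 of K/VP.5 and of K562 had the highest share of its line, and replicates 2 and 4 the higher shares in edit-3. The part of library quality in the shared deviation was not tested. The number of members called in edit-3 against K562 moved with single libraries, from 10 with all of them to 20 without edit-3 replicate 1, 16 without K562 replicate 4, 4 without edit-3 replicate 4, 5 without K562 replicate 1 and 6 without K562 replicate 2 or 3. In edit-3 against K/VP.5 it went to 4 without edit-3 replicate 3 or K/VP.5 replicate 1 and to 3 without K/VP.5 replicate 2. Of the calls named above, those of SNRNP70, TIAL1 and HNRNPF in each comparison they passed in, TIA1 and MBNL1 in K/VP.5 against K562, HNRNPK and PTBP2 in edit-3 against K562, and QKI and RBFOX2 in edit-3 against K/VP.5 held in all alternatives run. The call of HNRNPK in K/VP.5 against K562 was lost with no low-count filter, at an adjusted p of 0.052. With the 2 compared lines fitted alone, TIA1, SF3B4, PTBP1 and QKI did not pass in edit-3 against K562 (adjusted p 0.065 to 0.095), nor did PTBP2 and SF3B2 in edit-3 against K/VP.5 (adjusted p 0.057 and 0.072). MBNL2 in edit-3 against K562 passed with the Wald test of DESeq2 (0.92, adjusted p = 0.034), a stricter low-count filter (0.96, adjusted p = 0.038) and no robust estimation (0.93, adjusted p = 0.03).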

How the data were processed

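RNA sequencing counts of 12 libraries were used, 4 from each line. The authors deposited whole-number counts of reads for each gene, with no normalization. HISAT2 2.1.0, Subread 1.5.1 and its program featureCounts were used with GRCh38, per the submitters' processing notes. The annotation release, strand setting and treatment of reads with several matches are not stated in the sources at hand, so near-identical copies and overlapping genes can exchange reads. Lines were assigned from the source names and replicate numbers from the titles.

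From the deposited counts, edgeR 4.0.16 in R 4.3.3 gave the tests, and DESeq2 1.42.0 served as an alternative. After filterByExpr (minimum count 10), 18286 genes with 99.89% of reads remained. TMM-scaled negative binomial models were fitted to all 12 libraries with 1 coefficient per line. The robust quasi-likelihood F test of edgeR was used, and p-values were adjusted by Benjamini-Hochberg over all genes. The SE is the log2 fold change divided by the root of F. The 95% intervals of log2 fold changes use a normal multiple of this SE, so they are approximate and somewhat narrower than the F test implies. CPM per kb used merged exons of GENCODE 29, which matched 58275 of 58395 IDs. The fit was tested on simulated data. Depth was 25.3 to 37.1 M reads. Intervals on shares cover counting error only.

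Same-numbered K/VP.5 and K562 libraries deviated together from their line means (r = 0.66, 0.4, 0.27 and 0.77), though K562 replicate 3 matched K/VP.5 replicate 1 best. Edit-3 replicates 1 and 4 also deviated with their numbers in both other lines, and edit-3 replicates 2 and 3 did not. A single axis held 56.4% of the variance within lines, so libraries can deviate together without being paired. No label states a pairing, and the replicate block was run only as an alternative. Same-line libraries differed by chi-square per degree of freedom of 6.68 to 67.4, so none looked like a second copy.

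The members and lists were chosen with earlier results of these data known. Values in every library are given for the 12 members of the first 2 roles and, in each comparison, the 8 passing members with the largest absolute log2 fold change. MBNL2, SRSF1 and members that did not pass were added after their values were seen. From each related list, up to 3 passing genes could be named. Alternatives were DESeq2's size factors and test, no filter, a stricter filter (minimum count 50), no robust estimation, the 2 lines alone, a replicate block and each library left out.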

Additional observations from a re-analysis of the deposited data

Results flagged for a closer look

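Among 156 groups of 4 libraries, 1 for each gene and line, 5 held 1 library far from the other 3, by the gap to the nearest library relative to the whole range (Dixon's test). Chance alone flags about 1 in 20 groups. U2AF1, whose reads are shared with U2AF1L5, had 85.3 CPM in K/VP.5 replicate 3, against 98.7 to 101 CPM in the other K/VP.5 libraries. U2AF2 had 384 CPM in K/VP.5 replicate 4, where the others had 423 to 426 CPM. SF1 had 454 CPM in K562 replicate 4 and 510 to 514 CPM in the rest. In K/VP.5 replicate 3, RBFOX2 stood at 69.3 CPM beside 60.9 to 61.3 CPM, and QKI at 324 CPM beside 296 to 300 CPM.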

How the results depend on the processing

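Members called in K/VP.5 against K562 numbered 9, and 6 to 9 with a library left out, 10 with the replicate block and 15 with the block in the 2 lines alone. In edit-3 against K/VP.5 the count was 7, and 3 to 7 with a library left out. In edit-3 against K562 it was 10, and 4 to 20 with a library left out, 6 with the 2 lines alone and 17 (2 higher, 15 lower) with the replicate block. The numbers did not pair edit-3 with the other lines (r = 0.67, −0.16, −0.16 and 0.58 with K/VP.5, and 0.74, 0.04, −0.14 and 0.52 with K562), and the block gave 8 members in edit-3 against K/VP.5. U2AF2 in edit-3 against K/VP.5 ran from −0.18 to 0.02 with a library left out, and its sign turned (0.02, adjusted p = 0.92) without edit-3 replicate 2; the cause was not tested. With no low-count filter MBNL3, at 27 reads in K/VP.5 and 5 in K562, passed at 2.15 in K/VP.5 against K562 (adjusted p = 0.026) and, at 6 reads in edit-3, at −2.01 in edit-3 against K/VP.5 (adjusted p = 0.045). Counts over all genes stayed within 1.5 times in every alternative. With the replicate block these all-gene counts rose in each comparison, so added calls there were not limited to the members. With a library left out, all-gene counts ran from 5839 to 7221 in K/VP.5 against K562, beside 6688 in the main fit. In edit-3 against K/VP.5 they ran from 3388 to 4926, beside 4309. In edit-3 against K562 they ran from 6478 to 7553, beside 7166. The highest members' count there, 20 of 51, stood near the main fit's all-gene share of 39.2%. The members' SE, which holds the spread among libraries as well as counting error, ran from 0.053 to 0.35.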

Other observations

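Of 148 other splicing genes in 9 lists, 140 were tested. In K/VP.5 against K562, 31 changed (9 higher, 22 lower; 22.1%), in edit-3 against K/VP.5, 14 (6 higher, 8 lower; 10%) and in edit-3 against K562, 38 (7 higher, 31 lower; 27.1%), where 36.6%, 23.6% and 39.2% of all genes changed. In the Sm and LSm rings, which wrap the small nuclear RNAs, 6 of 14 tested genes fell in K/VP.5 against K562, where 18.3% of all genes fell. The lists differed: 0 of 13 other tri-snRNP genes fell, and of 24 PRP19 complex and catalytic genes 2 fell and 5 rose. SNRPD1, an Sm protein, averaged 77 ± 7.2 CPM in K/VP.5 and 123 ± 11 CPM in K562 (SD, n = 4), a log2 fold change of −0.67 (adjusted p = 6.7e-05), and 70.6 ± 8.4 CPM in edit-3 (−0.8 against K562, adjusted p = 1.2e-05). CLNS1A, which delivers Sm proteins for assembly, averaged 92.7 ± 1.1 CPM in K/VP.5, against 152 ± 4.6 CPM in K562 (−0.72, adjusted p = 4.2e-07).

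Among regulators of nonsense-mediated decay, which removes many transcripts with retained introns, 1 of 10 tested genes rose and 2 fell in K/VP.5 against K562. UPF3A averaged 77.2 ± 6.9 CPM in K/VP.5 and 51.8 ± 3.1 CPM in K562 (0.57, adjusted p = 4.2e-05). Its paralog UPF3B averaged 24.8 ± 1.1 CPM in K/VP.5 and 34.8 ± 2 CPM in K562 (−0.49, adjusted p = 8.8e-05). Among the PRP19 complex and catalytic factors, DHX15, a helicase that acts in spliceosome disassembly, fell in each comparison, with 211 ± 41 CPM in edit-3, 278 ± 17 CPM in K/VP.5 and 378 ± 54 CPM in K562. Its log2 fold changes were −0.44 in K/VP.5 against K562 (adjusted p = 0.014), −0.4 in edit-3 against K/VP.5 (adjusted p = 0.035) and −0.84 in edit-3 against K562 (adjusted p = 9.9e-05). SRPK3, an SR protein kinase, had 3.25 ± 0.14 CPM in K/VP.5 and 8.46 ± 0.95 CPM in K562 (−1.38, adjusted p = 4.1e-07).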
